A study of Mus musculus with 36 samples.

Results

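Liver gene expression was compared between 4 female mice heterozygous for the crooked tail allele of Lrp6 (Lrp6Cd, the Cd-Het group) and 4 female wild type mice of the same line (Cd-WT). These 8 arrays, chosen by the group name in their titles, are part of a series of 36 liver arrays from 9 groups that covers 5 mouse lines with mutations causing neural tube defects. The other groups, used here only for comparison, were heterozygotes of Pax3Sp2H, Apobtm1Unc and Vangl2Lp, ct mice held to be homozygous, wild type mice of the Vangl2Lp line, and C57BL/6J and CBA/CaJ mice. All mice were females of 6 to 8 weeks, fasted for 4 to 5 hours before dissection, and each array held biotin-labelled RNA from 1 liver. The labels mark the Lrp6Cd line as one that responds to dietary folic acid. They describe the mice as biological replicates and list each Cd-WT mouse as the control of the Cd-Het mouse of its number. Neither litters nor the genetic background of the line are given.

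LRP6 is a single-pass receptor that acts with its relative LRP5 and with Frizzled receptors as a co-receptor for Wnt ligands. When Wnt binds, LRP6 draws axin to the membrane, the complex that marks beta-catenin for destruction stops working, and beta-catenin enters the nucleus and activates genes together with TCF factors. In the liver, Wnt ligands and R-spondin from the endothelium of the central vein keep nearby hepatocytes in a pericentral state, with glutamine synthetase and CYP2E1, while hepatocytes near the portal vein express the urea cycle enzymes. Crooked tail is a missense mutation, so the protein is altered and the amount of Lrp6 transcript does not check the labels. In humans, rare LRP6 mutations have been linked to high LDL cholesterol.

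The values are MAS5 signals, the linear probe set intensities of an Affymetrix mouse array, and each array had been scaled to the same trimmed mean of 500. A log2 difference is the mean of log2(signal + 23) in Cd-Het livers minus that in Cd-WT livers, given with its standard error from a linear model (limma) fitted to these 8 arrays. Genes with an adjusted p below 0.05 (Benjamini-Hochberg, over the 12903 genes tested) count as called. Many genes have several probe sets, of which the brightest stands for the gene. Another one is given only where it too passed the filter on low values, a mean signal of about 61.4, and not for every gene. Arrays of the same group correlated at a median of 0.960 to 0.965. Cd-Het replicate 3 had the highest 3' to 5' signal ratio for the GAPDH control, 0.956, against 0.733 to 0.798 on the 7 other arrays. It also had the highest for pyruvate carboxylase, 16.1, against 4.25 to 11.3. For actin the highest was 2.24 on Cd-WT replicate 4, with 2.14 on Cd-Het replicate 3. Cd-Het replicate 2 had the highest median signal, 105.9, against 85.5 to 97.9 on the others. The part of the ratios and of the median signal in the results was not tested, but the main counts are also given without Cd-Het replicate 2 and without Cd-Het replicate 3. Fits with the spread estimated over all 36 arrays, given below, include CBA/CaJ replicate 4. Its GAPDH ratio was 52.5, and its median correlation with its group, 0.884, was the lowest of the 36. Its part in those fits was not tested.

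No gene passed the test. Over the 12903 genes, 0 were called (0%), the smallest adjusted p was 0.504, and 712 genes (5.52%) had an unadjusted p below 0.05, of which 383 (2.97%) had higher and 329 (2.55%) lower values in Cd-Het livers. The count of 712 was 1104 without Cd-Het replicate 2, 659 without Cd-Het replicate 3 and 254 with the spread estimated over all 36 arrays. The 4 Cd-Het values all lay above the 4 Cd-WT values in 229 genes (1.77%) and all below in 180 (1.4%), 409 in all (3.17%). The median log2 difference was 0.01 and 6635 genes had a positive one. The 95% interval of the log2 difference lay within a 2-fold change in either direction for 11750 genes (91.1%), and 39 genes had an estimate beyond 2-fold. In a simulation where genes varied independently, the same procedure called 70 of 100 genes set to 2-fold and 94 of 100 set to 4-fold. Both sets were changed together in the same simulated data, and rates with fewer changed genes were not tested. These rates hold for that number of changed genes without correlation between genes. The rate for real changes in these livers was not tested. When every probe set above the filter was tested instead of 1 for each gene, 1 of 25966 (0.00385%) was called, and it belongs to Smim10l1, a gene close to Lrp6 on chromosome 6. Without Cd-Het replicate 2, 3 probe sets were called, with Rbbp4 (log2 -1.36) and a probe set without a gene name here (-2.24) as the others, and without Cd-WT replicate 4, 2 were, Ces5a being the other.

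Lrp6 itself read 857, 1449, 1041 and 1293 in Cd-Het livers, against 1114, 959, 888 and 763 in Cd-WT livers. In Cd-Het livers 3 of the 4 values lay above the Cd-WT mean, and the groups overlapped. The log2 difference was 0.30 ± 0.17 (95% interval -0.07 to 0.67, limma adjusted p = 0.948), and a second Lrp6 probe set gave 0.58. Lrp5, the other co-receptor of this pathway, gave -0.13 ± 0.23, with signals of 95.4 to 209.6 in Cd-Het and 144 to 225 in Cd-WT livers. Ctnnb1, which encodes beta-catenin, read 11576, 12929, 10769 and 10681 in Cd-Het livers, against 10690.4, 11525, 11324 and 11918 in Cd-WT livers. Its log2 difference was 0.01 ± 0.10, with a 95% interval of -0.20 to 0.22.

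Of the 41 tested genes for Wnt ligands, receptors, inhibitors and the destruction complex, 24 had positive and 17 negative differences, with a median of 0.03 beside 0.01 over all genes. None was called, and in 38 of the 41 the 95% interval lay within 2-fold, near the 91.1% of all genes. An unadjusted p below 0.05 was found for 2, both with higher values in Cd-Het livers. The first is Fzd4, a Frizzled receptor, which read 1186, 1301, 1073 and 1448 in Cd-Het livers, against 1024, 915, 903 and 1097 in Cd-WT livers (log2 0.34 ± 0.13), while another probe set gave -0.32. The other is Dvl2, a Dishevelled protein that relays the signal from the receptors to axin, which read 161, 114, 152 and 103 in Cd-Het livers, against 123, 70.9, 40.8 and 92.8 in Cd-WT livers (log2 0.61 ± 0.28). Groups overlapped for both genes.

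The genes that Wnt signalling drives in pericentral hepatocytes had differences centred near zero, as all genes did. Of 26 tested, 14 had positive and 12 negative differences, and the median was 0.01. Intervals lay within 2-fold for 24, near the 91.1% of all genes. Glul, glutamine synthetase, which is confined to the hepatocytes around the central vein, read 17077, 16946, 19714 and 15261 in Cd-Het livers, against 19581, 15530.3, 16562 and 16479.8 in Cd-WT livers (log2 0.02 ± 0.11, 95% interval -0.22 to 0.25). Axin2, a feedback inhibitor that reports Wnt activity in most tissues, read 235, 445, 251 and 308 in Cd-Het livers, against 280.5, 368, 284 and 406 in Cd-WT livers (log2 -0.13 ± 0.20). The log2 difference was 0.08 ± 0.16 for the R-spondin receptor Lgr5, 0.04 ± 0.09 for Cyp2e1, -0.05 ± 0.17 for the ornithine aminotransferase Oat and 0.36 ± 0.21 for the transcription factor Tbx3, and all of these groups overlapped. A second probe set of Tbx3 gave 0.37. Cyp2e1 read 53396 to 54423 in Cd-Het and 47624 to 58541 in Cd-WT livers, close to the highest signals on these arrays, 59452 to 78711, and whether such bright probe sets could show a difference was not tested.

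A pair of pericentral genes had an unadjusted p below 0.05, in opposite directions. Notum, a secreted enzyme that removes the lipid from Wnt ligands and is itself induced by Wnt, read 1400.1, 1551, 1706 and 1718 in Cd-Het livers, against 1405, 1189, 1440.3 and 1117 in Cd-WT livers (log2 0.31 ± 0.13). Slc1a4, a transporter of neutral amino acids, read 21.8, 158, 72.8 and 212 in Cd-Het livers, against 142, 178, 233 and 312 in Cd-WT livers (log2 -0.99 ± 0.43), near the signal of 61.4 at which the filter on low values lay. Each group pair overlapped. Of 18 periportal enzymes of amino acid breakdown and the urea cycle, 8 had positive and 10 negative differences (median -0.02). Cps1, which makes the first intermediate of the urea cycle, read 36355, 35539.6, 32990.2 and 36279.7 in Cd-Het livers, against 30425, 27046, 28509 and 34859 in Cd-WT livers (log2 0.23 ± 0.10), the histidine ammonia lyase Hal gave -0.18 ± 0.12, and Ass1, argininosuccinate synthase, gave -0.63 ± 0.28 at a probe set that read 141, 242, 285 and 299 in Cd-Het livers, against 618, 258, 255 and 474 in Cd-WT livers. Cps1 and Ass1 were the members with an unadjusted p below 0.05. The Ass1 probe set was far dimmer than that of Cps1, and how well it stands for the Ass1 transcript was not tested.

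Among the genes close to Lrp6 on chromosome 6, the share with a low unadjusted p was above that of all genes. Lrp6 and its neighbours were put in order with the RefSeq annotation of GRCm38.p6, and the 40 tested genes on either side were described. Of these 80, 17 (21.2%) had an unadjusted p below 0.05, 11 with higher and 6 with lower values in Cd-Het livers, against 5.52% of all genes tested. The share was 24 of 593 (4.05%) on the rest of chromosome 6 and 671 of 12229 (5.49%) on the other chromosomes. Groups did not overlap in 8 of the 80 (10%), and 7 of these 8 were among the 20 nearest genes on either side, while 3.17% of all genes showed this. None of the 80 was called. The count of 17 was 10 without Cd-Het replicate 1 and also without Cd-WT replicate 2, the lowest of the fits that left out 1 array, 17 without Cd-Het replicate 2 and 12 without Cd-Het replicate 3, and with the spread estimated over all 36 arrays it was 8. The Cd allele of Lrp6 and other alleles that travel with it on this chromosome cannot be told apart in this design. A sequence variant under a probe set could also alter its signal, and this was not tested, since probe sequences were not at hand.

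**Figure D1:**
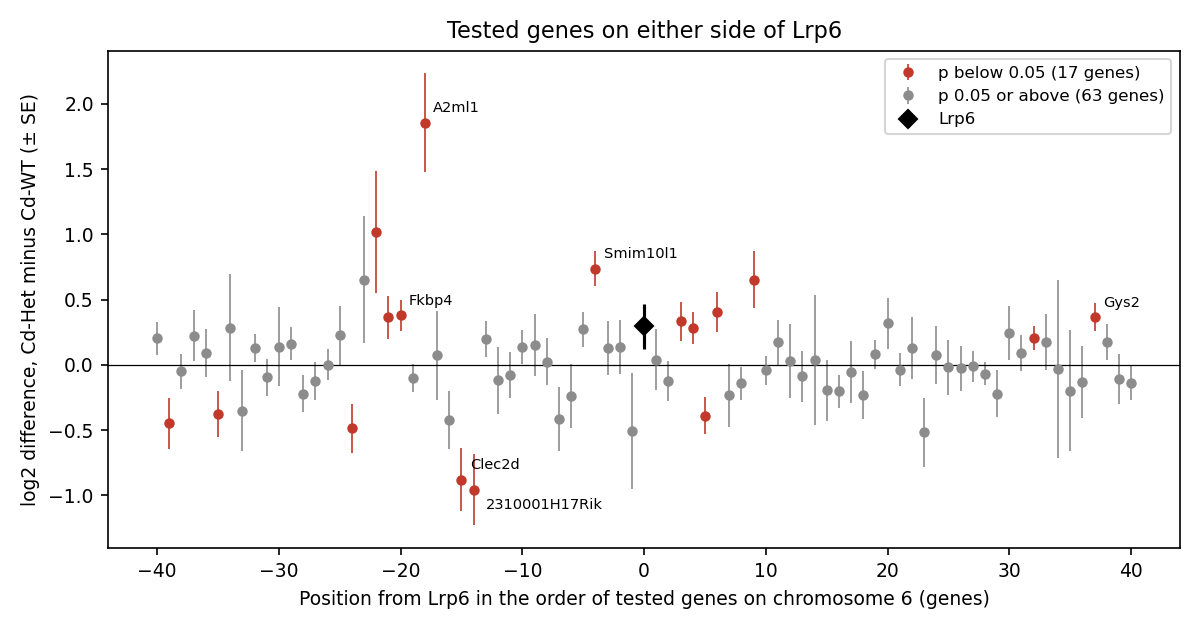
Log2 difference in signal (Cd-Het minus Cd-WT, vertical axis, bars are standard errors) of the 40 tested genes on either side of Lrp6, in the order of the genes along chromosome 6 (horizontal axis, number of tested genes from Lrp6). The 17 genes with an unadjusted p below 0.05 (red) lie on both sides of zero and on both sides of Lrp6 (black diamond), with A2ml1 at 1.85 and 2310001H17Rik at -0.96 as the extremes.

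Smim10l1 encodes a small predicted membrane protein and lies 4 tested genes from Lrp6. Its brightest probe set, 1453208_at, read 3369, 3214, 2545 and 2482 in Cd-Het livers, against 1914, 1776, 1486 and 1721 in Cd-WT livers. All 4 heterozygotes lay above all 4 wild type livers, and the log2 difference was 0.74 ± 0.13 (95% interval 0.44 to 1.03, limma adjusted p = 0.54 over genes). Another probe set of the gene, 1460464_at, read 1093, 738, 856 and 724 in Cd-Het livers, against 226, 154, 215 and 151 in Cd-WT livers. Its difference was 2.06 ± 0.18 with a 95% interval of 1.67 to 2.46, and it was the probe set called over all 25966 (limma adjusted p = 0.00139). It remained called in all 18 other fits, with log2 differences of 1.89 to 2.15 and adjusted p from 2.62e-10 to 0.0212. The 2 remaining probe sets of Smim10l1 gave 0.07 and -0.13, so the probe sets of this gene disagree in size and in sign. Whether a sequence variant lies under any of them was not tested.

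At that probe set the Cd-WT livers lay below every other group of the series. The signals were 716 to 1099.7 in ct mice and 838 to 1076 in CBA/CaJ mice, 833 to 946 in Vangl2Lp heterozygotes and 824 to 976 in wild type mice of that line, and 1391 to 1901 in Apobtm1Unc, 1186 to 1381 in Pax3Sp2H and 1196 to 1356 in C57BL/6J mice. The Cd-Het range, 724 to 1093, lay among these, and the Cd-WT range, 151 to 226, did not. At the brightest probe set the other groups spread from 415 (ct) to 3871 (Apobtm1Unc), which covers both Cd groups.

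**Figure D2:**
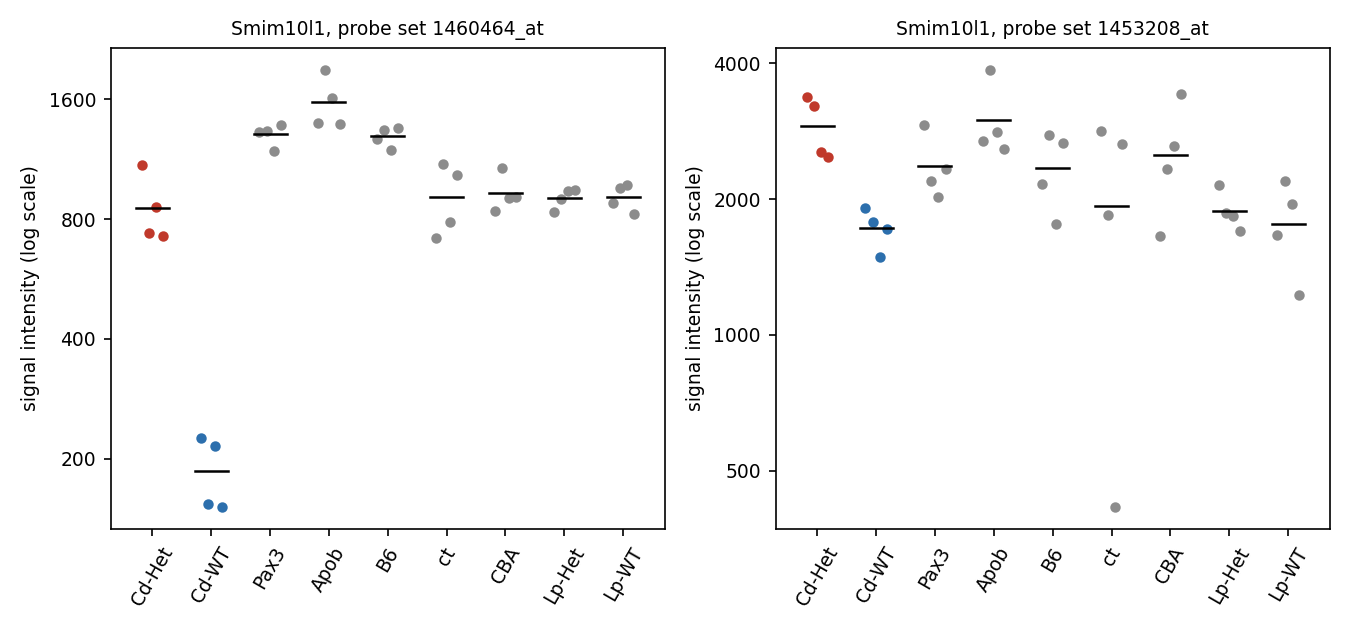
Signal of 2 probe sets of Smim10l1 on each of the 36 arrays (points, log axis) by group, with the group mean as a bar; the Cd-Het group is red and the Cd-WT group blue. At 1460464_at (left) the 4 Cd-WT livers read 151 to 226 and every other array 716 or more, and at 1453208_at (right) the Cd-Het livers read 2482 to 3369 and the Cd-WT livers 1486 to 1914.

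A2ml1, an inhibitor of proteases related to alpha-2-macroglobulin, read 415, 301, 424 and 570.3 in Cd-Het livers, against 115, 22.7, 146 and 183 in Cd-WT livers. The groups did not overlap and the log2 difference was 1.85 ± 0.38 (limma adjusted p = 0.54). Clec2d, a C-type lectin that binds an inhibitory receptor of natural killer cells, read 1450.4, 1032, 1298 and 874 in Cd-Het livers, against 2732, 1269, 1943 and 3003 in Cd-WT livers, with overlap and a difference of -0.88 ± 0.24. The other group means of Clec2d in the series were 366 to 941, below both Cd groups, which averaged 1163 ± 259 in Cd-Het and 2237 ± 786 in Cd-WT livers (SD, n = 4). The transcript 2310001H17Rik read 54.2, 178, 133 and 115 in Cd-Het livers, against 334, 220.5, 212 and 210.0 in Cd-WT livers (log2 -0.96 ± 0.27), all Cd-Het values below all Cd-WT values. Its other probe set gave -0.35.

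Gys2, the glycogen synthase of the liver, lies 37 tested genes from Lrp6 and read 9816, 9767, 9471 and 10717 in Cd-Het livers, against 8436, 8585, 7471 and 6492 in Cd-WT livers (log2 0.37 ± 0.11), without overlap. Fkbp4, a co-chaperone of steroid receptors, gave 0.38 ± 0.12 without overlap, but its 2 other probe sets gave -0.61 and -0.36. Gprc5a, an orphan receptor induced by retinoic acid, read 179, 146, 175 and 145 in Cd-Het livers, against 130.0, 105, 84.5 and 65.7 in Cd-WT livers (log2 0.65 ± 0.22), and the orphan receptor Gpr19 read 312, 393, 309 and 342 in Cd-Het livers, against 396, 516, 413 and 481 in Cd-WT livers (log2 -0.39 ± 0.14), both without overlap, though a second Gpr19 probe set gave 0.04. Groups overlapped for the cell cycle inhibitor Cdkn1b, which gave 0.41. They also overlapped for Slco1b2, an uptake carrier of bile acids and drugs (0.21), the phosphatase Dusp16 (0.33), Crebl2 (0.28), Itfg2 (0.36), Nrip2 (1.02), Rhno1 (-0.49), the sodium channel subunit Scnn1a (-0.45) and von Willebrand factor Vwf (-0.38). The 3 other probe sets of Slco1b2 had the opposite sign (-0.28 to -0.04).

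Most cholesterol synthesis genes had lower values in Cd-Het livers, and none was called. Of 20 tested members, 19 had negative differences, 12 had an unadjusted p below 0.05, all 12 with lower values (2.55% of all genes), and the median was -0.52. The mean of the list on each array, relative to the Cd-WT mean, was -0.77, -0.14, -0.53 and -0.50 in Cd-Het livers, against -0.13, 0.42, -0.47 and 0.17 in Cd-WT livers. The groups overlapped, since Cd-WT replicate 3 lay with the heterozygotes and Cd-Het replicate 2 lay with Cd-WT replicate 1. The count of 12 depended on single arrays: it was 5 without Cd-WT replicate 2, 6 without Cd-Het replicate 1, 12 without Cd-Het replicate 2, 9 without Cd-Het replicate 3 and 14 without Cd-WT replicate 3. Without probe sets that may share targets it was 9. With the spread estimated over all 36 arrays it was 0.

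The steps from acetyl-CoA to isoprenoids held some of the largest differences. Hmgcs1, which makes the HMG-CoA that enters the pathway, read 5630.4, 10199.8, 7129.8 and 8465 in Cd-Het livers, against 9984, 16028, 8217 and 13429 in Cd-WT livers (log2 -0.59 ± 0.21), and its 3 other probe sets gave -0.62 to -0.27. Idi1, which interconverts the isoprenoid building blocks, read 1219, 2504, 1787 and 1325 in Cd-Het livers, against 2523, 5564, 2029 and 4007 in Cd-WT livers (log2 -0.99 ± 0.29, limma adjusted p = 0.623), with a second probe set at -0.87. Cd-Het replicates 1, 3 and 4 lay below every Cd-WT liver for Idi1, and replicate 2 did not. Fdps, which makes farnesyl pyrophosphate, read 2999, 6650.1, 4054 and 4839 in Cd-Het livers, against 7824, 11899.8, 4269 and 11447 in Cd-WT livers (log2 -0.88 ± 0.30). The decarboxylase Mvd (-0.57) and the kinases Pmvk (-0.53) and Mvk (-0.52) had negative differences too, and Mvk did not reach an unadjusted p of 0.05.

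The steps from squalene to cholesterol followed with the same sign at the brightest probe sets. Sqle, squalene epoxidase, read 168, 670.0, 311 and 177 in Cd-Het livers, against 263, 994, 306 and 1358 in Cd-WT livers (log2 -0.97 ± 0.50), where the spread within each group was as large as the difference. Cyp51, the lanosterol demethylase, read 613, 1015, 998 and 651 in Cd-Het livers, against 1157, 2120.5, 839 and 1893 in Cd-WT livers (log2 -0.80 ± 0.27), and both of its other probe sets gave negative values, -0.87 and -0.67. Nsdhl (-0.79 ± 0.24), Msmo1 (-0.79 ± 0.29), Dhcr7 (-0.56 ± 0.20), Sc5d (-0.40 ± 0.15) and Hsd17b7 (-0.36 ± 0.16) are later enzymes of sterol ring and side group processing. The Hsd17b7 value comes from a probe set that may share targets, and its 3 other probe sets gave -0.10 to -0.01. Tm7sf2, a sterol reductase, was the member without overlap and read 5892, 6365, 6032 and 5135 in Cd-Het livers, against 8879, 9236, 6972 and 7184 in Cd-WT livers (log2 -0.45 ± 0.12, limma adjusted p = 0.617).

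Regulators of the pathway had differences near zero. Srebf2, the transcription factor that activates these genes when sterols are low, gave -0.06 ± 0.19, with signals of 345 to 640.1 in Cd-Het and 360.5 to 549 in Cd-WT livers. Insig1, which holds that factor in the endoplasmic reticulum and is itself one of its targets, was the member with a positive difference (0.07 ± 0.15). Stard4, a sterol carrier, gave -0.07, and Lss (-0.28), Fdft1 (-0.09) and Ebp (-0.06) were the enzymes besides Sqle and Mvk without an unadjusted p below 0.05. The 2 other probe sets of Lss gave -0.34 and 0.35, and the 3 others of Fdft1 gave -0.20 to 0.43. In the Vangl2Lp line, heterozygotes against wild type, the same 20 genes had a median of -0.06.

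**Figure D3:**
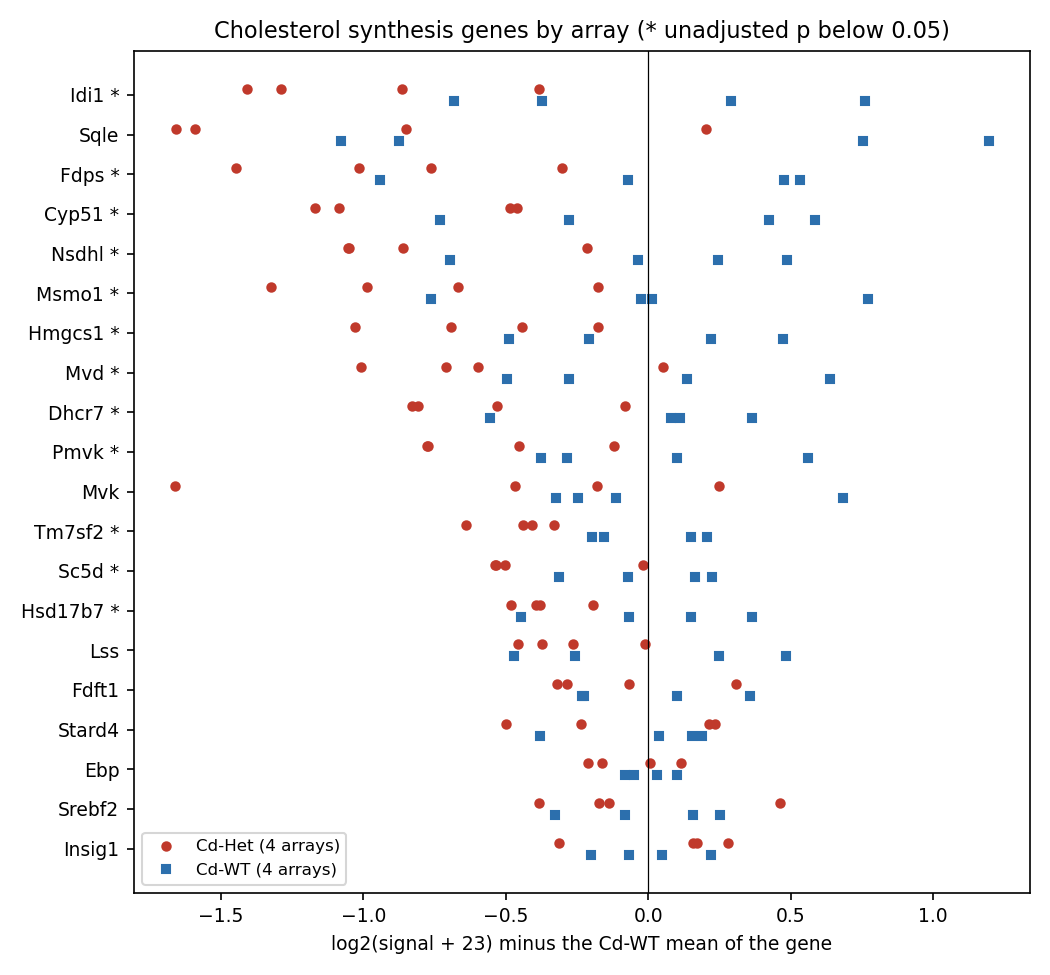
Signal of the 20 tested cholesterol synthesis genes on each of the 8 arrays, as log2(signal + 23) minus the Cd-WT mean of that gene (horizontal axis); red circles are Cd-Het livers, blue squares Cd-WT livers, and an asterisk marks an unadjusted p below 0.05 (12 genes). Most red points lie left of zero, and for most genes 1 or 2 blue squares lie among them.

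Promoter windows from RefSeq (GRCm38.p6), from 250 bases before to 50 after the transcription start, were found for 16 of the 20 genes (19 windows). The letters CCAAT, bound by NF-Y, a factor that works beside the sterol-responsive factor SREBP, stood on either strand in 16 of the 19 windows (84.2%) and in 37.4% of all 32851 windows of this length. The letters TCACNCCAC, from the sterol-response element, stood in 1 window, that of Hmgcs1 (5.26%, against 1.24% of all windows). The 250 bases before the start are shown for the 2 members with the smallest p, Tm7sf2 (chr19:6067851-6068100, minus strand) and Idi1 (chr13:8885356-8885605, plus strand), and for Hmgcs1 (chr13:119690101-119690350, plus strand), with these letters, on either strand, in capitals.
Tm7sf2: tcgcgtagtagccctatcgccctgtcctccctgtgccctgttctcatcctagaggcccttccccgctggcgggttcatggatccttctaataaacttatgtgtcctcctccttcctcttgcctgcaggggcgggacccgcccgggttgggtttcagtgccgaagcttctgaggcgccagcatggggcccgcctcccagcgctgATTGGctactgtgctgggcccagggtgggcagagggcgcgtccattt
Idi1: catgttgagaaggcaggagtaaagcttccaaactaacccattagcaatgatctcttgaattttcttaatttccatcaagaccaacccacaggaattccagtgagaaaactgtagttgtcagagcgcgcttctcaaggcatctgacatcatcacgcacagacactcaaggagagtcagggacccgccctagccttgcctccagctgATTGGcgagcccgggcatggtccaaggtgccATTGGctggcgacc
Hmgcs1: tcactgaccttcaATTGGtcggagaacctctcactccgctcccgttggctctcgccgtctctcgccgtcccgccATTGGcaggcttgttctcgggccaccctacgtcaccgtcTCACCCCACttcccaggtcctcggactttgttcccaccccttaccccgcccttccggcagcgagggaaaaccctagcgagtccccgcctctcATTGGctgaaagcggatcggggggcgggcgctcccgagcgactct
The pair of CCAAT matches in the Idi1 window read ATTGG on the strand shown, and in Hmgcs1 the sterol-response letters lie between such matches. These matches describe the sequence and do not show that a factor bound there.

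Other lipid genes had differences on both sides of zero. Of 24 fatty acid and triglyceride synthesis genes, 16 had negative differences (median -0.10) and 1 had an unadjusted p below 0.05, the acyltransferase Agpat2, which read 6283, 6759.9, 5978 and 6474 in Cd-Het livers, against 7122, 6989.9, 8454 and 8771 in Cd-WT livers (log2 -0.29 ± 0.11, without overlap). Acss2, which makes acetyl-CoA from acetate, read 3545, 5499.6, 4539 and 3162 in Cd-Het livers, against 7520.0, 11285, 2798 and 7251 in Cd-WT livers (log2 -0.65 ± 0.33), with Cd-WT replicate 3 lowest, as for Idi1 and Fdps among the Cd-WT livers. Fasn, fatty acid synthase, gave -0.48 ± 0.39, Scd1, the stearoyl-CoA desaturase, gave -0.08 ± 0.10 with a second probe set at -0.69, and Srebf1, the factor that drives this pathway, gave 0.11 ± 0.14. Groups overlapped for Fasn, Scd1 and Srebf1. The Scd1 probe set at -0.08 read 43710.5 to 46378 in Cd-Het and 43086 to 56516 in Cd-WT livers, near the highest signals on these arrays. The other one read 5504 to 12077 in Cd-Het and 5206 to 23072 in Cd-WT livers.

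Among 25 genes of fatty acid oxidation and targets of PPAR alpha, 18 had positive differences (median 0.08). Cyp4a14, a fatty acid hydroxylase induced by PPAR alpha, was the member with an unadjusted p below 0.05. It read 11987, 8336, 8179 and 19772 in Cd-Het livers, against 7844, 4899, 7806 and 3547 in Cd-WT livers, without overlap, a log2 difference of 0.98 ± 0.29 (limma adjusted p = 0.623). Ppara itself gave 0.09 ± 0.18, and Cpt1a, the gate of fatty acid entry into mitochondria, gave 0.17 ± 0.17. The 2 other probe sets of Cpt1a gave -0.05 and -0.04.

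Of 20 lipoprotein genes, 16 had negative differences, but the median was -0.05. Pltp, which moves phospholipids between lipoproteins, read 2585, 3090.2, 3546 and 3076 in Cd-Het livers, against 4902, 7091, 3868 and 6362 in Cd-WT livers. All 4 Cd-Het values lay below the Cd-WT values (log2 -0.82 ± 0.17, limma adjusted p = 0.54). This Pltp probe set may share targets, and a second one gave -0.38 with overlap. Apob, the core protein of VLDL and LDL particles, gave -0.16 ± 0.25, and Apoe gave -0.07 ± 0.09, both with overlap. Of 23 bile acid genes, 10 had positive differences (median -0.03). Slc10a1, the main uptake carrier of bile salts, read 23099.5, 24602, 24368 and 24156 in Cd-Het livers, against 26509, 26407, 27561 and 28751 in Cd-WT livers (log2 -0.18 ± 0.08), without overlap. Cyp7a1, which commits cholesterol to bile acids, read 2627, 3578, 4318 and 15055 in Cd-Het livers, against 3099, 4145, 3954 and 1113 in Cd-WT livers, so that Cd-Het replicate 4 alone lay far above the rest (log2 0.85 ± 0.49, 95% interval -0.20 to 1.91).

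Folate and methionine genes bear on the label of this line as responsive to folic acid. Of 25 folate genes, 14 had positive differences, the median was 0.00, and every one had an interval within 2-fold, against 91.1% of all genes. Mtrr, which reactivates the methionine synthase that joins the folate and methionine cycles, read 499, 509, 518 and 549 in Cd-Het livers, against 376, 375, 333 and 386 in Cd-WT livers. The groups did not overlap and the log2 difference was 0.47 ± 0.12 (limma adjusted p = 0.561). Gldc, the glycine decarboxylase that feeds carbon units into mitochondrial folate, gave -0.37 ± 0.16, with overlap. Mthfd1 (-0.04 ± 0.15) and Shmt1 (-0.03 ± 0.13), enzymes of the cytosolic folate cycle, had differences near zero.

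Of 21 methionine cycle and transsulfuration genes, 10 had positive differences (median -0.01) and 2 had an unadjusted p below 0.05. Bhmt, which methylates homocysteine with betaine in place of folate, read 25910.5, 25363, 25058 and 25281 in Cd-Het livers, against 34952, 32022, 34592 and 27384 in Cd-WT livers (log2 -0.34 ± 0.10, limma adjusted p = 0.623). The 4 Cd-Het livers differed little among themselves and all lay below the Cd-WT livers. The spermidine synthase Srm gave 0.33 ± 0.12. Mat1a, which makes S-adenosylmethionine in the liver, gave -0.01 ± 0.09, and Cbs, the first enzyme of transsulfuration, gave -0.12 ± 0.17.

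Most clock genes had higher values in Cd-Het livers, and none was called. Of 18 tested, 14 had positive differences, 7 had an unadjusted p below 0.05 with higher values (2.97% of all genes), 1 had one with lower values, and the median was 0.25. The mean of the list relative to the Cd-WT mean was 0.22, 0.24, 0.30 and 0.37 in Cd-Het livers, against 0.07, 0.14, -0.17 and -0.04 in Cd-WT livers, without overlap. The summed signal of the list, where bright members weigh most, was 38020 to 42523 in Cd-Het and 28704 to 39068 in Cd-WT livers, with overlap. The count of 7 was 6 or 7 when any 1 array was left out (7 without Cd-Het replicate 2, 6 without Cd-Het replicate 3), and 2 with the spread estimated over all 36 arrays. The labels do not give the hour of dissection. In the Vangl2Lp line the same 18 genes had a median of 0.37, heterozygotes against wild type.

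Several of these genes are outputs that rise and fall with the day. Tef, a transcription factor of the PAR bZIP family, read 4313, 4422, 4011 and 5432 in Cd-Het livers, against 3006, 3955, 2845 and 2426 in Cd-WT livers (log2 0.58 ± 0.15, limma adjusted p = 0.591), without overlap, though its 2 other probe sets gave -0.70 and 0.10. Its relative Dbp read 10352, 9965, 11565 and 11408 in Cd-Het livers, against 8878, 10246, 8274 and 6205 in Cd-WT livers (log2 0.38 ± 0.14), with a second probe set at 0.45. Usp2, a ubiquitin protease under clock control, read 2527, 1354, 2111 and 2558 in Cd-Het livers, against 1374, 1659, 956 and 665 in Cd-WT livers (log2 0.90 ± 0.26), and a second probe set also gave 0.90. Ciart, a repressor within the clock, read 579, 359.9, 305 and 537 in Cd-Het livers, against 318, 289.6, 46.1 and 176 in Cd-WT livers (log2 1.21 ± 0.41).

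The period genes, repressors of the core loop, had positive differences. Per3 read 597, 791, 639 and 820.2 in Cd-Het livers, against 597, 623, 314 and 351 in Cd-WT livers (log2 0.62 ± 0.21), with 4 other probe sets at -0.14 to 0.46. Per2 gave 0.54 ± 0.21 and its 2 other probe sets gave -0.72 and -0.36. Per1 gave 0.53 ± 0.22. Of the activators, Clock read 341, 502, 381 and 369 in Cd-Het livers, against 482, 519, 591 and 545 in Cd-WT livers (log2 -0.41 ± 0.14), and its 2 other probe sets gave -0.63 and -0.22. Arntl, its partner, gave 0.28 ± 0.16, with a second probe set at -1.25. The repressors Cry1 (0.31), Cry2 (0.12) and Nr1d1 (-0.15) and the output factors Hlf (0.22) and Nfil3 (-0.08) had overlapping groups.

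**Figure D4:**
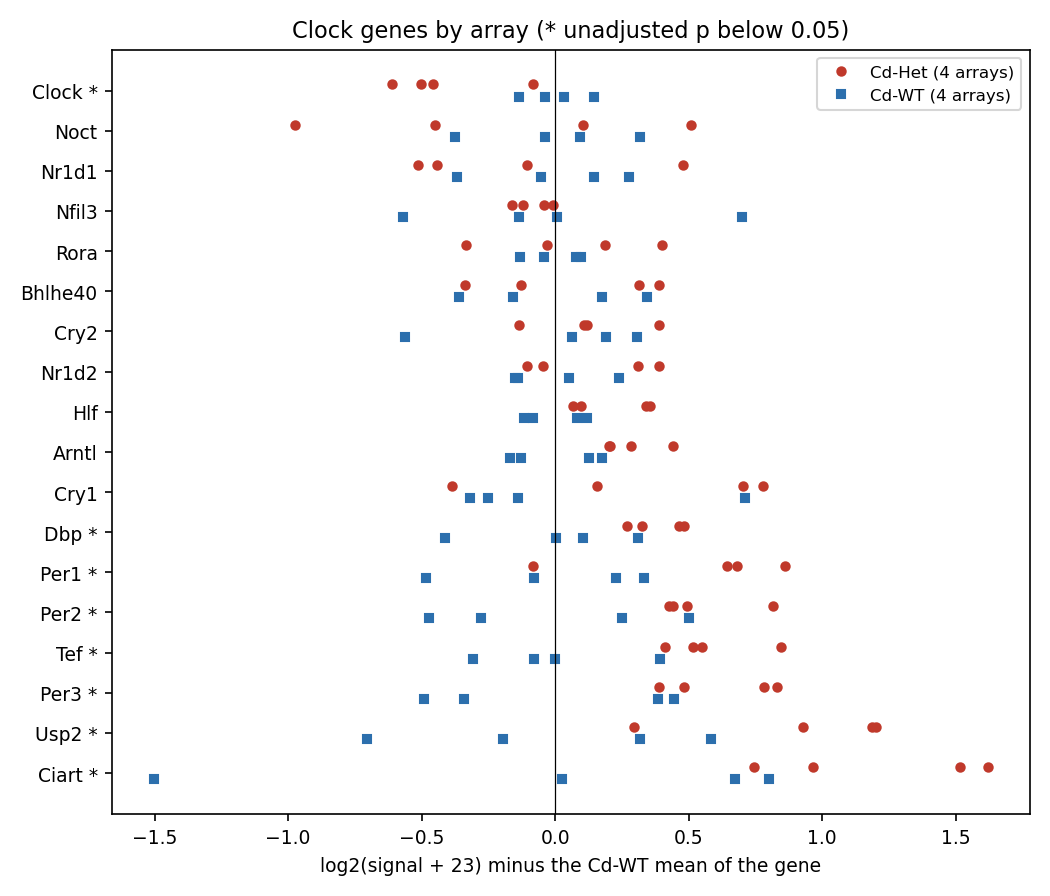
Signal of the 18 tested clock genes on each of the 8 arrays, as log2(signal + 23) minus the Cd-WT mean of that gene (horizontal axis); red circles are Cd-Het livers, blue squares Cd-WT livers, and an asterisk marks an unadjusted p below 0.05 (8 genes). Clock lies at the top with lower Cd-Het values, and the other 7 marked genes lie at the bottom with higher ones, where Cd-WT replicates 3 and 4 account for most of the squares far to the left.

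The E-box CACGTG, the site of the CLOCK and BMAL1 pair, was searched in the 21 promoter windows listed for 16 of the 18 clock genes. It stood in 5 windows (23.8%) of 4 genes, against 7.15% of all windows, and does not overlap the letters CCAAT. It also stood in 4 of the 19 cholesterol windows (21.05%) and 3 of the 16 pericentral windows (18.75%). Its high share was therefore not limited to the clock genes. Tef (chr15:81802423-81802672, plus strand, the first of 2 windows listed) and Ciart (chr3:95882229-95882478, minus strand) are shown as the members with the smallest p that hold an E-box in the 250 bases before the start, with the E-box in capitals.
Tef: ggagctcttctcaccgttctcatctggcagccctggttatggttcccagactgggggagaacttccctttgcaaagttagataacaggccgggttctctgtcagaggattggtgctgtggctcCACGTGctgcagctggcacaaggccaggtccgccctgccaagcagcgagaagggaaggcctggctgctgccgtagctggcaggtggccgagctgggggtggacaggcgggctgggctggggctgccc
Ciart: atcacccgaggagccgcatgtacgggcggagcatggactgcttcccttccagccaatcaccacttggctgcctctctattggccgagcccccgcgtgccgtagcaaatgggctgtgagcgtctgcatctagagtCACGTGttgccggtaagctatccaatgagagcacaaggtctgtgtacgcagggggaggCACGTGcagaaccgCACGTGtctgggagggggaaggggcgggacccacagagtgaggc
The Tef stretch holds 1 E-box and the Ciart stretch 3. A match does not show binding. The letters CCAAT stood in 16 of the 21 clock windows (76.2%), so their high share was not limited to the cholesterol genes. The letters CTTTGAT, bound by the TCF factors of Wnt signalling, were searched on both strands and stood in 3 of the 16 windows of the pericentral genes (18.8%), those of Lect2, Slc1a2 and Sp5, against 3.73% of all windows, and in 0 windows of the cholesterol and clock genes.

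Glucose and glycogen genes had a median of -0.01 over 23 tested members. G6pc, the glucose-6-phosphatase that releases glucose from the liver, read 3336, 6897, 8231 and 8216 in Cd-Het livers, against 10389.9, 8945, 13398 and 9233 in Cd-WT livers. All Cd-Het values lay below all Cd-WT values, and the log2 difference was -0.72 ± 0.24. Ppp1r3c, which brings a phosphatase to glycogen, read 1917, 3159.6, 2357 and 1864 in Cd-Het livers, against 3572, 2841, 4154 and 3299 in Cd-WT livers (log2 -0.59 ± 0.17), with a second probe set at -0.54. Gys2, the neighbour of Lrp6, had higher values, and Pck1, the other enzyme that commits carbon to glucose, gave -0.10 ± 0.12. The 2 other probe sets of Pck1 gave -0.34 and 0.14. G6pc and Ppp1r3c also had negative differences in the Vangl2Lp line, of -0.82 and -1.46.

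Genes of drug metabolism leaned to positive differences (15 of 23, median 0.09), and 3 with higher and 1 with lower values had an unadjusted p below 0.05. Alas1, the rate-limiting enzyme of heme synthesis, read 5602, 3677, 6524 and 12303 in Cd-Het livers, against 3073, 4801, 3783 and 4834 in Cd-WT livers (log2 0.65 ± 0.28), with the highest value in Cd-Het replicate 4 and a second probe set at 0.34. Cyp2c37 gave 0.58 ± 0.20 with overlap. Txnrd1, thioredoxin reductase, gave 0.31 ± 0.14 without overlap. Gstm2, a glutathione transferase, read 3217, 3508, 3716 and 3076 in Cd-Het livers, against 5309, 4432, 4376 and 3763 in Cd-WT livers (log2 -0.39 ± 0.12), without overlap. The indicator genes of CAR, PXR and Nrf2 had differences near zero, Cyp2b10 with 0.10 ± 0.23, Cyp3a11 with 0.09 ± 0.14 and Nqo1 with 0.12 ± 0.18.

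Sex-biased genes did not separate the groups. Of 12 female-biased genes 5 had positive differences and 0 an unadjusted p below 0.05. Cyp2b9 gave 0.10 ± 0.11, and Sult3a1 read 29.4, 270.3, 263 and 4.55 in Cd-Het livers, against 166, 63.8, 503 and 743 in Cd-WT livers, a spread within groups that leaves an interval of -3.13 to 0.25. Of 10 male-biased genes 2 had positive differences and 0 an unadjusted p below 0.05, with Elovl3 at -0.43 ± 0.27.

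Stress genes included several heat shock members with higher values. Of 28 genes of the unfolded protein and heat shock responses, 18 had positive differences (median 0.09), and 3 had an unadjusted p below 0.05. Hsph1, a co-chaperone of HSP70, read 1262, 1003, 963 and 878 in Cd-Het livers, against 659, 755, 577 and 786 in Cd-WT livers (log2 0.55 ± 0.15), without overlap, and a second probe set gave 0.52. Hspa8, the constitutive HSP70, read 18228, 13114, 16009.6 and 16226 in Cd-Het livers, against 12542, 12346, 12987 and 12175 in Cd-WT livers (log2 0.34 ± 0.11), also without overlap, with 3 other probe sets at -0.17 to 0.41. The small heat shock protein Hspb1 gave 0.47 ± 0.20, with another probe set at 1.11. The inducible Hspa1b gave 0.06 ± 0.31, Hspa5, the main chaperone of the endoplasmic reticulum, gave -0.08 ± 0.16, and Ddit3, a factor of prolonged stress, gave 0.21 ± 0.20. The 2 other probe sets of Hspa5 gave -0.25 and 0.13.

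Metallothioneins, which bind zinc and copper, varied widely in Cd-WT livers. Mt1 read 30186, 37176, 30728 and 30682 in Cd-Het livers, against 37201, 26612, 20252 and 12279.6 in Cd-WT livers (log2 0.53 ± 0.25), and Mt2 read 18106, 22088, 19836 and 16160.0 in Cd-Het livers, against 20055, 14214, 8235 and 4866 in Cd-WT livers (log2 0.87 ± 0.32). Cd-WT replicate 4 was lowest and Cd-WT replicate 1 among the highest for both. A second Mt1 probe set gave 1.10. Of the iron genes, Id1, a target of the BMP signal that controls hepcidin, read 967, 1311, 702 and 984 in Cd-Het livers, against 820.3, 584, 513 and 471 in Cd-WT livers (log2 0.71 ± 0.20), and Hjv, the BMP co-receptor hemojuvelin, read 2571, 3073, 2767 and 2537 in Cd-Het livers, against 3565, 3553, 3039.5 and 3748 in Cd-WT livers (log2 -0.34 ± 0.11). Hamp, hepcidin itself, gave -0.04 ± 0.10, and the transferrin receptor Tfrc gave 0.27 ± 0.21. The 17 tested iron and metallothionein genes had a median of 0.02.

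Acute phase genes (25 tested, median 0.00) held 2 with an unadjusted p below 0.05, of opposite sign, Orm2 (0.48 ± 0.16) and Orm1 (-0.28 ± 0.11). These encode closely related proteins, and their probe sets may share signal. Saa1 read 4193, 2104, 2598 and 5095 in Cd-Het livers, against 5897, 1696, 1586 and 1747 in Cd-WT livers (log2 0.51 ± 0.38), Hp gave -0.01 ± 0.10 and Lcn2 gave 0.02 ± 0.32. Interferon-stimulated genes (23 tested, median -0.06) held Ifi27 at 0.47 ± 0.17 and Oasl1 at -0.48 ± 0.19 as those with an unadjusted p below 0.05, and Ifit1 gave -0.01 ± 0.21. The 30 subunits of oxidative phosphorylation, among them Ndufs1 at 0.07 ± 0.11, had a median of 0.03 and 0 with an unadjusted p below 0.05. All 30 had intervals within 2-fold, against 91.1% of all genes.

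Of 19 DNA replication and mitosis genes, 17 had negative differences (median -0.22). Few hepatocytes divide in adult liver. Signals were low, and Mki67, a protein of dividing cells, read 35.8, 159, 99.1 and 34.0 in Cd-Het livers, against 165, 57.3, 88.7 and 99.3 in Cd-WT livers (log2 -0.37 ± 0.39), and Top2a gave -0.25 ± 0.31. Ccne1, a cyclin of S phase entry, differed in the other direction and read 333, 250.2, 311 and 308 in Cd-Het livers, against 86.3, 149.7, 188 and 212 in Cd-WT livers (log2 0.88 ± 0.22, limma adjusted p = 0.561), without overlap. This Ccne1 probe set may share targets, and a second one gave 0.89 with overlap. The replication helicase subunit Mcm3 (-0.37 ± 0.17) and the cell cycle inhibitor Cdkn1a (-0.88 ± 0.33) were the members with lower values and an unadjusted p below 0.05, and a second Mcm3 probe set gave -0.44.

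**Figure D5:**
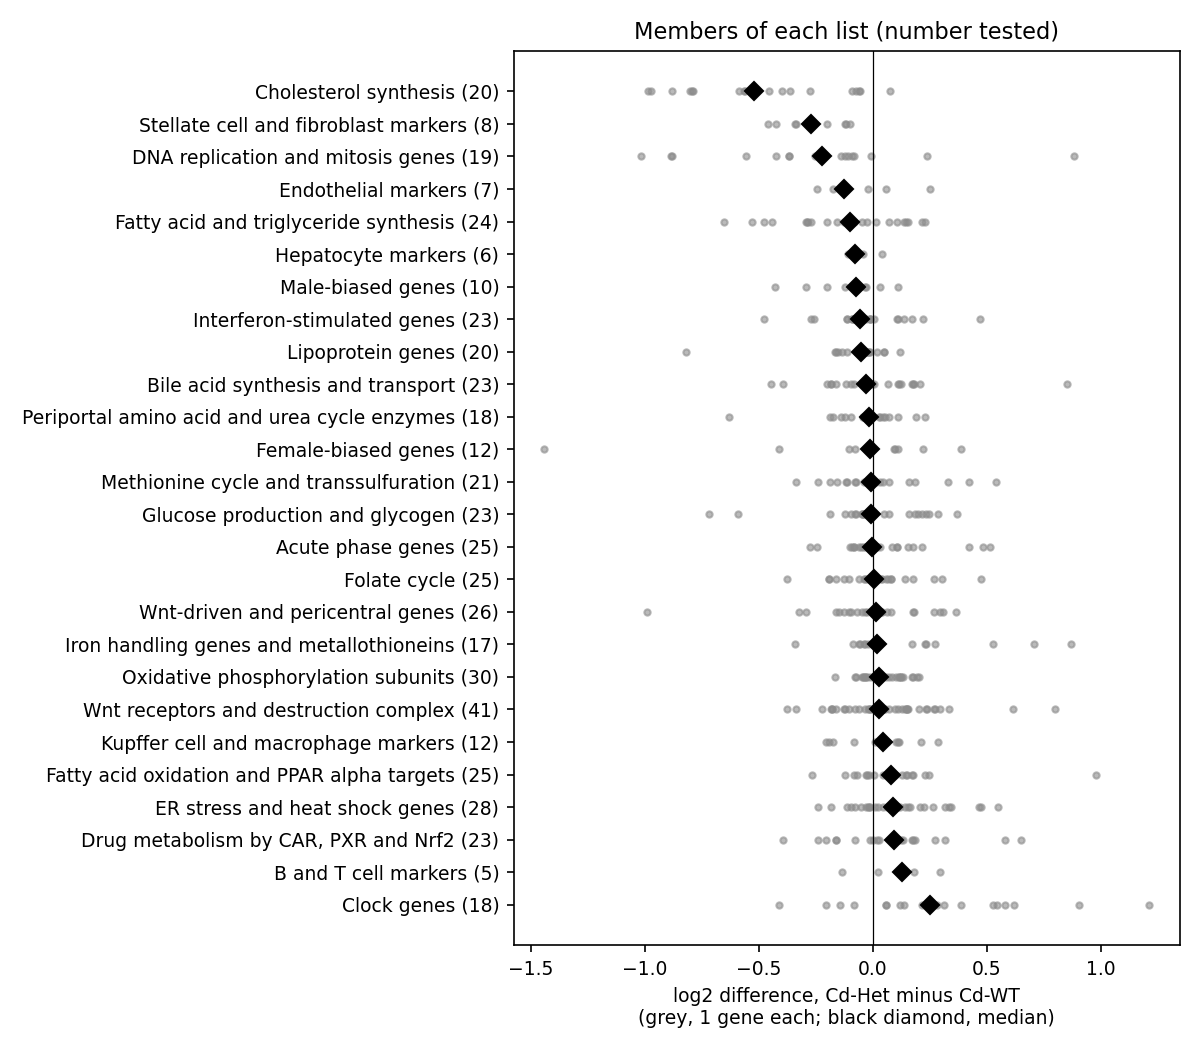
Log2 difference (Cd-Het minus Cd-WT, horizontal axis) of every tested member (grey points) of the 26 lists with at least 5 tested members, with the list's median as a black diamond and the number tested in brackets. The medians run from -0.52 for cholesterol synthesis to 0.25 for clock genes, and the single points that lie farthest out belong to Sult3a1 and Ciart.

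Markers of the cell types in the samples were checked as a whole. The 6 hepatocyte markers were bright in both groups, with Alb at 46667, 42881, 44827 and 46168 in Cd-Het livers, against 45870.3, 41959, 48392 and 57189 in Cd-WT livers and Ttr at -0.09 ± 0.10 on the log2 scale. Of 12 Kupffer cell and macrophage markers 8 had positive differences (median 0.04), with Clec4f at 0.21 ± 0.12 and Lyz2 at 0.11 ± 0.19, and of 7 endothelial markers 2 did (median -0.13), with Stab2 at -0.24 ± 0.16 and Pecam1 at 0.06 ± 0.13. All 8 markers of stellate cells and fibroblasts had negative differences (median -0.27). Their summed signal was 15317 to 16721 in Cd-Het livers and 17748 to 18472 in Cd-WT livers, without overlap, but bright members weigh most in a sum. The mean of the list on each array, relative to the Cd-WT mean, was -0.52 to 0.08 in Cd-Het and -0.07 to 0.12 in Cd-WT livers, with overlap. Pdgfrb, the receptor that marks stellate cells, read 369, 428, 442 and 376 in Cd-Het livers, against 539, 544, 512 and 668 in Cd-WT livers (log2 -0.46 ± 0.13, limma adjusted p = 0.623), without overlap, while Lrat gave -0.34 ± 0.18 with a second probe set at 0.07, and Col1a1 gave -0.34 ± 0.38. In bulk tissue fewer cells of a type and less RNA per cell cannot be told apart, and the part of these markers in the other results was not tested.

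Signals of other cell types were low or alike. The bile duct markers Krt19 and Epcam gave -0.37 ± 0.23 and 0.17 ± 0.53, and Epcam reached 565 on Cd-Het replicate 2 against 46.7 to 196 on the other Cd-Het arrays. Among the lymphocyte markers Cd79a gave 0.13 ± 0.40, the red cell enzyme Alas2 gave 0.10 ± 0.22, and the elastase Cela1, from the pancreas list, gave 0.06 ± 0.20.

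The genes with the smallest p fall outside most of these lists. On the side of lower values, Psen2, a catalytic subunit of gamma-secretase, had the smallest adjusted p of the comparison. It read 4676, 5033, 4362 and 4724 in Cd-Het livers, against 7143, 7058, 7568 and 6687 in Cd-WT livers (log2 -0.60 ± 0.10, limma adjusted p = 0.504), and its other probe set gave 0.19. Polr3k, a subunit of RNA polymerase III, read 1088, 1019, 448 and 1156 in Cd-Het livers, against 2148, 2084, 1709 and 2083 in Cd-WT livers (log2 -1.17 ± 0.24), while 3 other probe sets gave -0.43 to 0.10. Aqp1, a water channel, read 3393, 3066, 3379.9 and 2781 in Cd-Het livers, against 4488, 4338, 4184 and 4178 in Cd-WT livers (log2 -0.45 ± 0.11). The Golgi tethering subunit Cog7 gave -0.78 ± 0.17, the signalling kinase Irak1 -0.82 ± 0.19, the transcription factor Sox21 -1.40 ± 0.30 at signals of 29.0 to 58.7 in Cd-Het and 76.2 to 207 in Cd-WT livers, and Pltp also belongs here. The transcripts 2210039B01Rik (-0.78 ± 0.15), Gm32461 (-0.75 ± 0.16) and Gm30214 (-1.14 ± 0.27) complete the 10. Groups did not overlap in these 10 genes except for Irak1, whose 3 other probe sets gave -0.22 to 0.17. The Psen2, Polr3k, Pltp and Irak1 values come from probe sets that may share targets. In the Vangl2Lp line, heterozygotes against wild type, 5 of the 10 genes also had negative differences, among them Psen2 (-0.61), Cog7 (-0.77) and 2210039B01Rik (-0.89), each close to its value in the Cd line.

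On the side of higher values, Cebpa, a transcription factor that maintains hepatocyte identity, read 13809.6, 12684, 13442 and 14702 in Cd-Het livers, against 10605, 10326, 10503 and 9935 in Cd-WT livers. The difference was small beside a tight spread (log2 0.40 ± 0.09, limma adjusted p = 0.54). Klf10, a zinc finger factor induced by TGF beta, read 1936, 1618, 1827 and 1937 in Cd-Het livers, against 1094, 1329.7, 1399.7 and 1268 in Cd-WT livers (log2 0.52 ± 0.12), and Maff, a small MAF factor, read 236 to 260.3 in Cd-Het and 96.0 to 195 in Cd-WT livers (log2 0.86 ± 0.21). The ribosome assembly factors Nob1 (0.68 ± 0.16) and Surf6 (1.04 ± 0.23) and the chromatin remodeller Baz1b (0.50 ± 0.12) were also among the 10, and a second Baz1b probe set gave -0.16. Hoxa9 gave 1.51 ± 0.30, with overlap. Smim10l1, A2ml1 and Ces5a make up the 10. In the Vangl2Lp line 6 of these 10 had positive differences. Of the 36 named genes with an unadjusted p below 0.05 and another probe set that passed the filter, 15 had at least 1 of opposite sign.

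Ces5a, a carboxylesterase, had the largest estimate among these genes and the widest spread. It read 1451, 937, 1040.4 and 667 in Cd-Het livers, against 102, 53.3, 45.2 and 634 in Cd-WT livers (log2 2.81 ± 0.55, 95% interval 1.62 to 4.00), at a probe set that may share targets, and another probe set gave -0.12. Cd-WT replicate 4 lay just below the lowest heterozygote, and without that array Ces5a was the 1 gene called (log2 3.54). The same probe set ran from 69.2 to 1655 within the C57BL/6J group and from 44.4 to 1150 within the Vangl2Lp heterozygotes.

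The comparison was set beside that of the Vangl2Lp line, whose 4 heterozygotes also had 4 wild type mice of their own line and share no array with the Cd groups. Vangl2Lp heterozygote 4 had the highest median signal of the 36 arrays, 143.9. It correlated at a median of 0.929 with the other arrays of its group. The difference between the line effects was called in 0 of 12839 genes (0%), the smallest adjusted p was 0.200, and 921 genes (7.17%) had an unadjusted p below 0.05. When all probe sets were tested, 2 were called, 1460464_at of Smim10l1 (2.07) and 1453023_at, which has no gene name here (-1.45). The smallest p belonged to Apcs, serum amyloid P, which read 13440.5, 14403, 18641 and 11403 in Cd-Het livers, against 14881, 12825, 17134 and 15811 in Cd-WT livers. For Apcs the Cd effect minus the Vangl2Lp effect was -1.33 ± 0.23 on the log2 scale (limma adjusted p = 0.2). Its Cd difference was only -0.08, so this value comes mostly from the Vangl2Lp line. The other genes with the smallest p were Hopx (-1.07 ± 0.24, with a Cd difference of -0.02), Ces5a (5.34 ± 1.12), Cdk19 (1.01 ± 0.22) and Gm30214 (-2.19 ± 0.45). Of these, Cdk19, a kinase of the Mediator complex, read 371, 391, 345 and 436 in Cd-Het livers, against 227, 266, 273 and 278 in Cd-WT livers, without overlap, and 309.6, 291, 347 and 273 in Vangl2Lp heterozygotes, against 341, 438, 592 and 400.4 in wild type mice of that line. A second Cdk19 probe set had a Cd difference of -0.14. Of the 20 cholesterol synthesis genes 4 and of the 18 clock genes 2 had an unadjusted p below 0.05 for the difference between lines, and 0 were called, so neither list was shown to differ between the lines.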

How the data were processed

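RNA from each liver was hybridised to 1 Affymetrix Mouse Genome 430 2.0 array. The authors computed a signal for each probe set with MAS5, per the submitters' processing notes (version not stated), and the deposited values are linear signal intensity. Each array's trimmed mean over all probe sets was 500, computed here with 2% left out at each end. MAS5 signals are not quantile normalized and are noisy near background. Of 45101 probe sets, 64 were array controls and were left out. The platform's probe table gave 34945 probe sets 1 symbol each, 932 several and 9160 none here, and the Entrez IDs of 34741 of the first kind were found in the RefSeq table of GRCm38.p6, used for symbols and gene order.

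Probe sets with 1 symbol whose mean log2(signal + 23) over the 8 arrays passed the 40th percentile (6.40, a signal of 61.4) were kept, and the brightest stood for each gene, which left 12903 of 18193 symbols. limma 3.58.1 in R 4.3.3 was fitted with a variance trend on intensity to the 4 Cd-Het and 4 Cd-WT arrays, and for the difference between the Cd and Vangl2Lp effects to 16 arrays. Tests were two-sided and adjusted by Benjamini-Hochberg over all genes tested. Every p given is limma's. The number of arrays limits the precision. In simulated data with independent genes and both sets changed together, 70 of 100 genes changed 2-fold and 94 of 100 changed 4-fold were called, with 5 false calls.

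Genes named were Lrp6, the 10 with the smallest p in each direction (none was called), the defining members of each list, the 5 with the smallest p for the difference between lines, and the 3 neighbours of Lrp6 with the smallest p. A further 77 named genes were chosen after their values were seen: all tested cholesterol synthesis and clock genes, and neighbours and list members, mostly with an unadjusted p below 0.05. The groups, the 30 lists (613 members, 551 with a probe set, 515 tested) and the tests were chosen with earlier results of these data known. Lists are described by counts and medians, without a test. Python 3.11.15 and matplotlib 3.10.9 made the figures.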

Additional observations from a re-analysis of the deposited data

Results flagged for a closer look

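In the 165 named genes, each group of 4 arrays was examined for a value far from the other 3, by Dixon's criterion at the 95% level, which chance exceeds in about 1 of 20 groups. In 330 groups of values, 13 held such an array, and no explanation was tested. In Cd-Het livers, Mt1 read 37176 on replicate 2 (the others 30186 to 30728), Sc5d read 12771 on replicate 2 (8899 to 9113), Cyp2c37 read 1092 on replicate 1 (590.3 to 652), Txnrd1 read 3088 on replicate 4 (2720.4 to 2762) and Polr3k read 448 on replicate 3 (1019 to 1156). In Cd-WT livers, Polr3k also had a low array, replicate 3 with 1709 (2083 to 2148). Saa1, which encodes an acute phase protein, read 5897.5 on Cd-WT replicate 1 (1586 to 1747), and the same array held the flagged values of Hopx, 5663 (5128 to 5177), Cyp2b10, 179.6 (119 to 125), and 2310001H17Rik, 334 (210.05 to 220.5). Cd-WT replicate 4 held those of Srebf1, 9787 (6020 to 6541), and 2210039B01Rik, 453 (345 to 349), and Cd-WT replicate 2 that of Pecam1, 425 (345 to 354).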

How the results depend on the processing

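The count of 0 called genes was the same under quantile normalization, median centring, offsets of 10 and 60, no filter and a filter at the 60th percentile, no variance trend, array weights, a fit to all 36 arrays, probe sets without shared or mixed targets, and a replicate block. With all probe sets tested, 1 was called (Smim10l1; 1 to 3 with 1 array left out), and for the difference between the Cd and Vangl2Lp effects 2 were. With any 1 array left out, 0 to 1 genes were called in either comparison: Ces5a without Cd-WT replicate 4, and for the difference between lines Ces5a without Vangl2Lp heterozygote 2 and Ifi202b without Vangl2Lp heterozygote 4. The number of genes with an unadjusted p below 0.05 was 589 to 1104 with 1 array left out, highest without Cd-Het replicate 2. With all 36 arrays it was 254, the lowest of the other fits. With all probe sets tested, 1353 of 25966 probe sets, not genes, had such a p. The labels list each Cd-WT mouse as the control of the Cd-Het mouse of its number, without naming a litter or day. Deviations of same-numbered arrays correlated at 0.0198 to 0.0893, none above 0.1, and the numbers were not taken as pairs. All 4 of these correlations were positive and 3 of the 4 Cd-Het arrays correlated best with their own number, a hint of pairing that the main test does not use. With the replicate block, 0 genes were called and 847 had an unadjusted p below 0.05. Of the named genes, 41 changed sign in at least 1 alternative, 5 of them with a difference beyond 0.25, and 10 of 3256 values moved by more than 1 SD. The counts given for cholesterol, clock and neighbouring genes, and the fits of the Smim10l1 probe set, under each alternative were chosen after seeing the data. Probe sets near a signal of 61.4 have differences whose size depends on the offset.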
